A study of Bos taurus with 60 samples.

Results

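Liver small RNA of 2 paternal half-sib families of Angus beef cattle was compared. Family A held the 6 Angus steers with the sire label A200801106, family B held the 5 with the sire label A200901020, and these 11 made up part of the 20 Angus steers and of 60 steers in all, the others being 9 Angus steers of 5 further sires, 20 Charolais and 20 of the Kinsella Composite (KC). Each steer was assigned by its sire label, and no measured value entered that rule. All 11 were castrated males fed the same finishing diet of barley grain, barley silage and rumensin pellets, and each gave 1 liver library. Residual feed intake (RFI) is the feed an animal eats beyond what its growth and size predict, and the study drew its steers from the extremes of that trait. Family A held 2 high-RFI steers, 1 low-RFI steer and 3 with no group given, while family B held 1, 1 and 3. Steers are called A1 to A6 and B1 to B5, where the number is only a name. A sire is a genetic background here and not a treatment: the dams are not given, all steers of a family share 1 father, and the assignment of libraries to sequencing pools is not given, so that family and pool cannot be told apart.

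MicroRNAs (miRNAs) are short RNAs cut from the arms of a folded hairpin, and they lower the output of messenger RNAs that pair with their seed, the stretch of bases 2 to 8. In liver they take part in the control of cholesterol, fatty acid and glucose metabolism, and some are typical of one cell type, such as bta-miR-122 of hepatocytes. Half-sibs by one sire receive their paternal chromosomes from the same bull, while sons receive their X chromosome from the dam. Levels are given as CPM, the share of a library's counts scaled to a common total, after TMM scaling, which corrects library totals for a few abundant species, and differences are log2 fold changes of family A minus family B, so that a positive value means a higher level in family A.

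The sequences below belong to miRNAs chosen from the 15 whose family difference had the smallest p-values, together with 4 close relatives for comparison. They are given as the study's table of known miRNAs lists them, 5′ to 3′, with the seed in capitals.
bta-miR-2284ab: uAAAAGUUugguuggguuuuu
bta-miR-2285by: aAAAGUUUgguuggguuuuucu
bta-miR-2285bl: aAAACCUGaaugaacucuuuggu
bta-miR-2285f: aAAACCUGaaugaacuuuuugg
bta-miR-2285ar: aAACCCUGaugaacuuuuuggc
bta-miR-2285bd: aAACCCUGaugaacuuuuug
bta-miR-33a: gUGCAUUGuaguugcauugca
bta-miR-33b: gUGCAUUGcuguugcauugc
bta-miR-378: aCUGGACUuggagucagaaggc
bta-miR-455-5p: uAUGUGCCuuuggacuacauc
bta-miR-455-3p: gCAGUCCAugggcauauacacu
bta-miR-2411-5p: uGGAGUGAcugucagaugcagcca
bta-miR-2411-3p: gCUGAACUgucuuacucccacaucc
bta-miR-214: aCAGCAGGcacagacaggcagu
bta-miR-3432a: uGCGGGAUcuuuaguuguggug
bta-miR-12001: cCUGUGAGggcuucacccugga
bta-miR-33a and bta-miR-33b share their seed and differ at 2 of 20 aligned bases. bta-miR-2285bl and bta-miR-2285f share theirs and differ at 1 of 22 aligned bases, while bta-miR-2285ar and bta-miR-2285bd are identical over 20. bta-miR-2284ab matches bta-miR-2285by over 20 bases with a start shifted by 1 base, so that their seeds differ. Counts of such relatives can be split between them by the counting, which leaves their separate levels uncertain.

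Library totals ran from 1930859 (A6) to 5703119 (A2) counts in family A and from 2733691 to 4393725 in family B, and a floor of 3 counts in 1 library stood for 0.526 to 1.55 CPM. The 10 most abundant miRNAs took 80.7% ± 1.46 (SD, n = 6) of counts in family A and 81.3% ± 2.31 (SD, n = 5) in family B. B2 stood apart with a TMM factor of 0.713, against 0.914 to 1.19 in the other 10 steers, and with 84.8% of its counts in the 10 most abundant miRNAs. Spearman correlations of log2 CPM between the steers ran from 0.957 to 0.984. All 5 hepatocyte miRNAs listed were measured in both families, with a summed level of 286680 to 430980 CPM in family A and 294160 to 543160 CPM in family B. Of the 6 muscle miRNAs, bta-miR-206 had no count in any of the 11 steers.

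Over the whole profile no separation of the families passed the test. The mean Euclidean distance of log2 CPM between steers of different families was 15.25 over 30 pairs, and that between steers of the same family was 15.22, a difference of 0.029 (exact two-sided permutation test over 462 relabelings, p = 0.909, where the smallest p the design allows is 0.00433). With 1 minus Spearman's rho as the distance, the means were 0.0329 between and 0.0312 within families (same exact permutation test, p = 0.104). Steers of family A were farther from each other (16.03 over 15 pairs, from 12.7 to 19.7) than those of family B (14.01 over 10 pairs, from 11.3 to 15.6), a difference that was not tested. The steers farthest from all others were A6, A3 and A4, with mean distances of 17.4, 17.1 and 16.8. The nearest neighbour of a steer was a half-sib for 6 of the 11. A6 was also the shallowest library, and the part of depth in these distances was not tested. Without any 1 steer the difference ranged from -0.26 to 0.39.

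**Figure D1:**
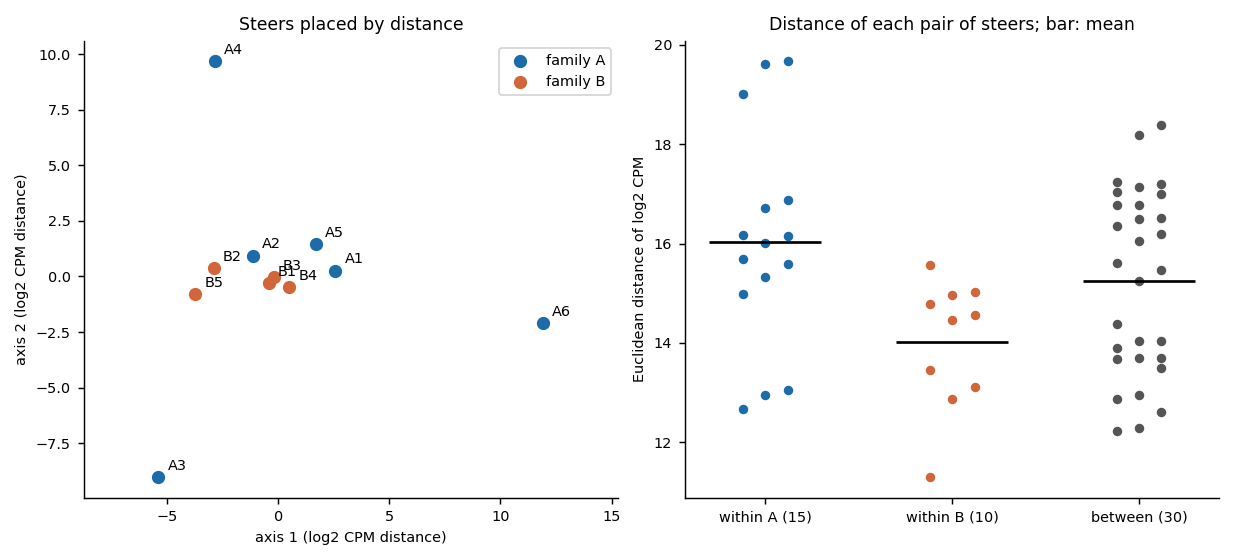
Left: the 11 steers placed by classical scaling of their distances (both axes in units of log2 CPM distance; blue family A, orange family B). Right: the Euclidean distance of each pair of steers within family A, within family B and between families, with means of 16.03, 14.01 and 15.25 as bars; A3, A4 and A6 lie away from the rest, and the between-family pairs overlap both within-family sets.

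No miRNA passed the adjusted threshold. Of the 378 miRNAs tested with edgeR's quasi-likelihood test, 0 (0.0%) had a Benjamini-Hochberg adjusted p under 0.05, and the smallest adjusted p was 0.480. DESeq2's Wald test also called 0. At an unadjusted p under 0.05 there were 26 miRNAs (6.88% of those tested) in edgeR, 15 higher in family A (3.97%) and 11 lower (2.91%), and 27 in DESeq2, where 18.9 would fall under that threshold on average without any difference. With the further condition of a fold above 1.5, which is the rule the study used for its own comparisons, 18 were called (4.76%), 11 higher in family A (2.91%) and 7 lower (1.85%). The exact permutation test of each miRNA gave 21 at p under 0.05 (5.56%), of which 15 were among the 26, with a smallest adjusted p of 0.818. The levels named below describe these 11 steers, and none of the differences held after correction.

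Precision depended on the level. The SD of log2 CPM within a family had a median of 0.59 in family A and 0.54 in family B for the 168 miRNAs under 10 CPM, but 0.15 and 0.21 for the 45 over 1000 CPM. Of the 18 called, 14 were under 10 CPM and 0 were over 100 CPM. In 277 of the 378 miRNAs the 95% interval of the difference lay within 2-fold either way, and in 156 within 1.5-fold.

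**Figure D2:**
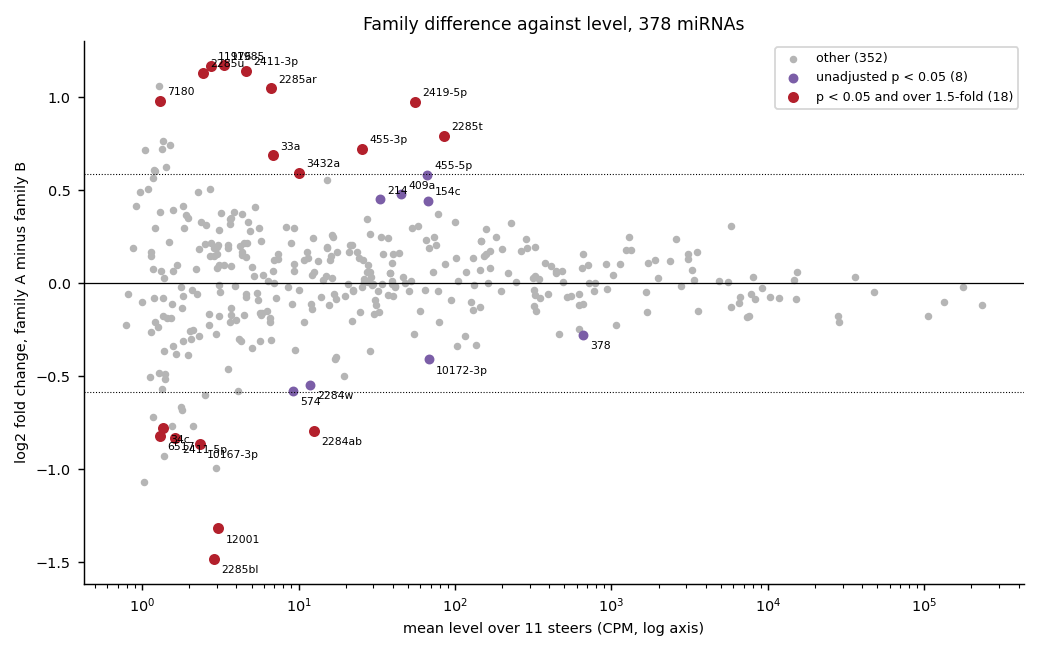
Log2 fold change of family A minus family B (vertical axis) against the mean level over the 11 steers in CPM (log axis) for 378 miRNAs. Red points are the 18 with unadjusted p under 0.05 and a fold above 1.5 (dotted lines), purple points the 8 with p under 0.05 and a smaller fold; the scatter narrows with level, and 0 of the 18 lie above 100 CPM.

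The miRNA with the smallest p was bta-miR-2284ab, a member of a large family of miRNAs found in ruminants. Its level in family A was lowest at 6.80 CPM, with a median of 9.45 and a highest value of 12.2 CPM. The steers of family B had 22.1, 14.8, 15.6, 16.001 and 12.7 CPM (B1 to B5). Every steer of family B thus lay above every steer of family A, and bta-miR-2284ab was the only miRNA of the 378 (0.265%) whose families did not overlap. Without any difference, a share of 0.00433 of relabelings would separate the families, which is above the 0.265% seen. The mean of bta-miR-2284ab was 9.42 ± 2.32 CPM (SD, n = 6) against 16.2 ± 3.51 CPM (SD, n = 5), a log2 fold change of -0.79 with a standard error of 0.21. This gave an edgeR p of 0.00172, an adjusted p of 0.480 and an exact permutation p of 0.00433, the smallest that the design can give. The 4 other tested miRNAs with its seed had log2 fold changes of -0.46 to -0.05, all with p above 0.19. The near-identical bta-miR-2285by was not among the miRNAs tested.

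Further members of the bta-miR-2284 and bta-miR-2285 family had p under 0.05 in both directions. bta-miR-2285bl had 2.68, 1.30, 0.892, 0, 2.18 and 2.49 CPM in A1 to A6 and 4.67, 1.14, 4.69, 6.15 and 5.28 CPM in B1 to B5. The sole family B value inside the family A range was that of B2, and A4 had no count, which allows up to 1.21 CPM. Its log2 fold change was -1.48 ± 0.44 (SE; edgeR p = 0.00381, adjusted p = 0.480), and without B2 it was -1.67. bta-miR-2285f, which shares its seed and nearly its whole sequence, ranged from 218 to 369 CPM in family A and from 140 to 450 CPM in family B, with a log2 fold change of 0.19 (95% interval -0.26 to 0.64). The range of family B enclosed that of family A.

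bta-miR-2285ar lay between 4.21 and 12.5 CPM in family A with a median of 9.16 CPM, and at 4.41, 1.90, 1.56, 10.2 and 3.38 CPM in B1 to B5. B4 alone of family B exceeded the median of family A. The log2 fold change was 1.05 ± 0.39 (SE; edgeR p = 0.0156, adjusted p = 0.597), and 1.61 without B4. Its shorter twin bta-miR-2285bd had a median of 1.79 CPM in family A and 0.519 CPM in family B, close to the level of 3 counts, and a log2 fold change of 1.06 (95% interval -0.09 to 2.21, edgeR p = 0.0679). bta-miR-2285u (log2 fold change 1.13), bta-miR-2285t (0.79) and bta-miR-2284w (-0.55) had edgeR p-values of 0.0392, 0.0387 and 0.0400. For bta-miR-2285t, B4 had 11.4 CPM and the other 4 steers of family B 51.2 to 89.8 CPM, and without B4 the log2 fold change was 0.53. Of all 58 members tested, 31 had a higher mean in family A and 27 a lower one, the median log2 fold change was 0.01, and 3 in each direction had p under 0.05. Over all 378 the median was 0.03, 55.3% had a higher mean in family A, and 3.97% and 2.91% had p under 0.05 with a higher and a lower mean.

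Both arms of the hairpin bta-mir-455, which lies within COL27A1, a collagen gene, had higher means in family A. bta-miR-455-3p had 29.2, 26.3, 26.2, 49.3, 30.2 and 26.4 CPM in A1 to A6 and 15.6, 12.1, 17.97, 30.5 and 17.7 CPM in B1 to B5. A4 was far above its half-sibs and B4 far above those of family B, so that the ranges met only through B4. The log2 fold change was 0.72 ± 0.23 (SE; edgeR p = 0.00663, adjusted p = 0.516). bta-miR-455-5p had 57.5, 67.7, 57.7, 132, 80.3 and 76.1 CPM in A1 to A6 against 50.6, 64.1, 48.4, 53.8 and 44.6 CPM in B1 to B5. A4 was again the highest, and B2 was the one family B steer inside the range of family A. Its log2 fold change of 0.58 ± 0.20 (SE; edgeR p = 0.00939, adjusted p = 0.565) was 0.35 without A4, and that of bta-miR-455-3p was 0.53. The arms come from 1 hairpin and are not independent measurements of a family difference.

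The arms of bta-mir-2411, a hairpin within UBAP2L, had differences of opposite sign. bta-miR-2411-3p ranged from 1.49 CPM (A3) to 14.9 CPM (A6) in family A with a median of 5.12 CPM, and had 1.82, 3.04, 3.39, 3.08 and 2.11 CPM in B1 to B5. A6 lay far above the other 5 half-sibs, which reached 6.26 CPM, and 5 of the 6 steers of family A exceeded every steer of family B. The log2 fold change was 1.14 ± 0.43 (SE; edgeR p = 0.0158, adjusted p = 0.597, exact permutation p = 0.104), and 0.76 without A6. bta-miR-2411-5p had a median of 1.18 CPM in family A (0.892 to 1.49) and 2.60, 2.66, 1.30, 2.46 and 1.90 CPM in B1 to B5, with 3 counts or fewer in 3 of the 11 steers. B3 was the one family B steer inside the range of family A, and the log2 fold change was -0.83 ± 0.32 (SE; edgeR p = 0.0222, adjusted p = 0.682). Of 25 hairpins with both arms tested, 15 had both differences of the same sign, and the gap between the arms had a median of 0.20 on the log2 scale. It was 1.98 in bta-mir-2411 and 0.69 in bta-mir-30b, the next. The gap itself was not tested.

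Among miRNAs of lipid and insulin metabolism, bta-miR-33a and bta-miR-378 had p under 0.05, in opposite directions. bta-miR-33a, which is encoded within SREBF2, the gene of the transcription factor that drives cholesterol synthesis, had 8.64, 7.99, 5.35, 10.9, 9.52 and 7.46 CPM in A1 to A6. B1 to B5 had 3.12, 4.55, 5.99, 6.46 and 5.49 CPM. All steers of family A but A3 lay above all of family B. The log2 fold change was 0.69 ± 0.24 (SE; edgeR p = 0.0118, adjusted p = 0.565). Its seed mate bta-miR-33b had a mean of 39.4 ± 9.58 CPM (SD, n = 6) in family A and 37.6 ± 8.70 CPM (SD, n = 5) in family B, with a log2 fold change of 0.06 (95% interval -0.34 to 0.46).

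bta-miR-378, 1 of whose hairpins lies within PPARGC1B, a coactivator gene of mitochondrial and fat metabolism, ranged from 522 to 673 CPM in family A (median 605 CPM). In B1 to B5 it was at 633, 727, 617, 854 and 785 CPM. The families overlapped between 617 and 673 CPM. The log2 fold change was -0.28 ± 0.11 (SE; edgeR p = 0.0244, adjusted p = 0.682), the smallest in size of the 26. The near-identical bta-miR-378b (-0.40), bta-miR-378c (-0.12) and bta-miR-378d (-0.21) also had lower means in family A, each with p above 0.05. Of the 15 miRNAs on this list, 4 had a higher mean in family A and 11 a lower one, 1 in each direction had p under 0.05, and the median was -0.10, beside 55.3% higher, 3.97% and 2.91% at p under 0.05 in each direction and a median of 0.03 over all 378. For bta-miR-378, which was not among the 18 called, p under 0.05 was lost in 6 of 25 alternatives. The edgeR p-values were 0.150 without scaling factors and 0.0876 without B4.

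Several other miRNAs of low level were among the 15 with the smallest p. bta-miR-12001 had 1.79, 2.28, 0.594, 0.842, 3.26 and 1.99 CPM in A1 to A6 and 5.97, 2.28, 2.60, 4.92 and 7.18 CPM in B1 to B5 (log2 fold change -1.32 ± 0.39, SE; edgeR p = 0.00365, adjusted p = 0.480). B2 and B3 lay within the family A range. bta-miR-10167-3p lay between 1.26 and 1.99 CPM in family A and at 4.41, 1.52, 2.60, 3.08 and 3.80 CPM in B1 to B5 (log2 fold change -0.86 ± 0.31, SE; edgeR p = 0.0120). Only B2 fell within the narrow range of family A. bta-miR-3432a lay between 9.21 and 14.02 CPM in family A and between 6.77 and 9.72 CPM in family B, where B5 had the highest value (0.60 ± 0.19, SE; edgeR p = 0.00683, adjusted p = 0.516). bta-miR-7180 had medians of 1.95 and 0.759 CPM, with 3 counts or fewer in 4 of the 11 steers (log2 fold change 0.98, edgeR p = 0.0331). Among the 18 called, bta-miR-11976 and bta-miR-11985 had log2 fold changes of 1.17 each with edgeR p-values of 0.0396 and 0.0451, but exact permutation p-values of 0.641 and 0.420. A3 had no count of bta-miR-11976, which allows up to 0.999 CPM, and 0.297 CPM of bta-miR-11985, both the lowest of the 11 steers. bta-miR-6517 lay close to the level of 3 counts in both families (log2 fold change -0.82, edgeR p = 0.0420, exact permutation p = 0.0476). The filter of 1 CPM in 5 or more of the 11 steers can be met by the steers of 1 family alone. bta-miR-6517 passed it mainly through family B, and bta-miR-7180 mainly through family A. Their p-values can therefore not be read as support for a difference, and other miRNAs near 1 CPM may be affected likewise. The remaining miRNAs of the 26 were bta-miR-574 and bta-miR-10172-3p, with log2 fold changes of -0.58 and -0.41, each under 1.5-fold. Calls of low-level miRNAs were often lost in the alternatives, for bta-miR-6517 in 13 of 23, for bta-miR-11976 and bta-miR-11985 in 12 of 24 each, for bta-miR-7180 in 11 of 24 and for bta-miR-2285u in 9 of 24.

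bta-miR-2419-5p was split within family A. A1 and A6 had 133 and 151 CPM, whereas A2 to A5 had 41.9, 32.1, 28.2 and 42.2 CPM. B1 to B5 had 46.7, 42.1, 29.2, 24.3 and 37.4 CPM, in the range of A2 to A5 apart from B1 and B4. The family means were 71.4 ± 55.2 CPM (SD, n = 6) and 35.9 ± 9.19 CPM (SD, n = 5). Although the edgeR p was 0.0257 (log2 fold change 0.98 ± 0.40, SE, adjusted p = 0.682), the exact permutation p was 0.260. Without A1 the log2 fold change was 0.68, and without A6 it was 0.60, with edgeR p-values of 0.0926 and 0.0986. The difference thus rested on 2 of the 6 half-sibs.

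**Figure D3:**
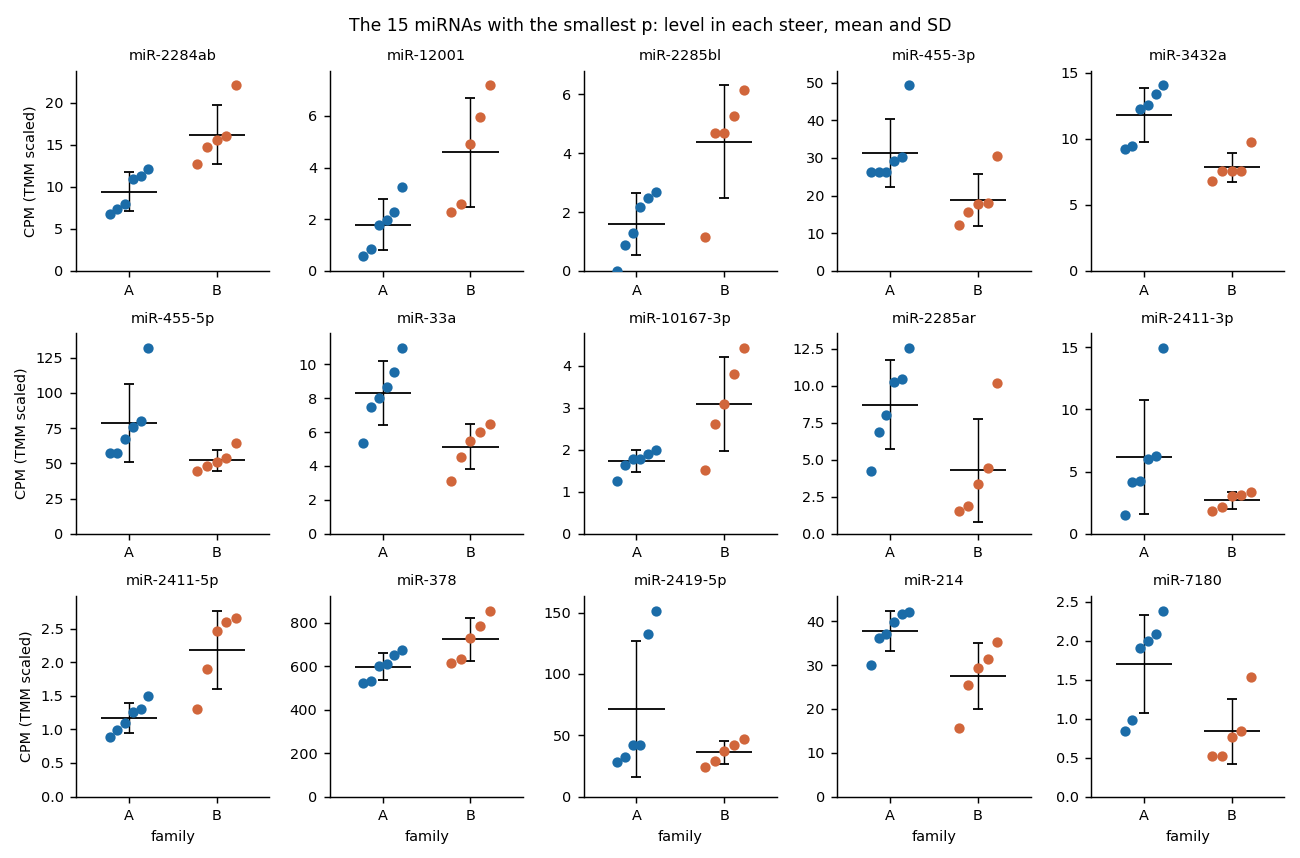
Level in CPM (vertical axes from 0) of the 15 miRNAs with the smallest p in each steer of family A (blue, 6 steers) and family B (orange, 5 steers), with the mean as a line and the SD as bars. The families do not overlap for bta-miR-2284ab (6.80 to 12.2 against 12.7 to 22.1 CPM) and overlap in the other 14, and A1 and A6 alone are high for bta-miR-2419-5p.

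Markers of other liver cell types were compared, since a piece of liver holds hepatocytes, vessels, connective tissue and blood. In such bulk samples fewer cells of a type and less of a miRNA per cell cannot be told apart. Among 6 mesenchymal miRNAs, which are typical of stellate and smooth muscle cells, 5 had a higher mean in family A, the median log2 fold change was 0.24, and bta-miR-214 alone had p under 0.05, beside 55.3% higher, a median of 0.03 and 6.88% at p under 0.05 over all 378. bta-miR-214 had 41.7, 30, 42.2, 36.2, 37.0 and 39.8 CPM in A1 to A6 and 25.4, 15.6, 31.5, 35.4 and 29.4 CPM in B1 to B5. The ranges overlapped between A2 and B4, with B2 the lowest of all. Its log2 fold change was 0.45 ± 0.19 (SE; edgeR p = 0.0281, adjusted p = 0.682), and 0.33 without B2. bta-miR-199a-3p and bta-miR-199a-5p, which are listed with bta-miR-214, had log2 fold changes of 0.25 and 0.24, with p-values of 0.150 and 0.138 in edgeR. The summed level of the mesenchymal list, mostly bta-miR-143, was 160560 to 202010 CPM in family A and 126420 to 287880 CPM in family B, so that the range of family B enclosed that of family A.

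No member of the hepatocyte, endothelial, leukocyte, erythroid, biliary epithelial or muscle lists had p under 0.05, beside 6.88% of all 378 miRNAs tested. The median log2 fold changes of these lists were -0.07 (5 tested), -0.07 (2), 0.03 (8), 0.15 (3), 0.11 (5) and -0.09 (3), beside 0.03 over all 378. In edgeR the members of these lists with the smallest p were bta-miR-141 of the biliary list, with a log2 fold change of 0.29 (95% interval -0.06 to 0.64, exact permutation p = 0.199), bta-miR-223 of the leukocytes, with -0.36 (-0.86 to 0.13, exact permutation p = 0.195), and bta-miR-1 of muscle, with -0.67 (-1.58 to 0.25, exact permutation p = 0.416). bta-miR-144, an erythroid miRNA, was highest in A4 at 53.5 CPM and lay at 22.4 to 32.9 CPM in its half-sibs and at 16.6 to 38.6 CPM in family B, with a log2 fold change of 0.26 (95% interval -0.26 to 0.79). bta-miR-194 of the hepatocytes had a log2 fold change of 0.11 (95% interval -0.12 to 0.34). bta-miR-122, the liver's hallmark miRNA, had 6479 ± 987 CPM (SD, n = 6) in family A and 6821 ± 469 CPM (SD, n = 5) in family B, with a 95% interval of the ratio of A to B from 0.804 to 1.12.

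miRNAs of the imprinted DLK1-DIO3 region, which are transcribed from the maternal chromosome, had higher means in family A for 26 of the 33 tested (78.8%, against 55.3% of all 378), with a median log2 fold change of 0.23 against 0.03. The 33 come from 1 region and are not independent measurements of a family difference. Of the 33, 2 had p under 0.05, both higher in family A, which are bta-miR-409a (0.48, edgeR p = 0.0363) and bta-miR-154c (0.44, edgeR p = 0.0436), with adjusted p-values of 0.682. bta-miR-409a had 47.4, 37.5, 76.4, 37.1, 42.2 and 69.6 CPM in A1 to A6 and 37.9, 41.7, 32.3, 27.7 and 44.8 CPM in B1 to B5. A3 and A6 were the highest of the 11. The same steers led for bta-miR-154c, at 116 and 101 CPM, against 50.1 to 76.0 CPM in the other 4 of family A and 48.4 to 61.9 CPM in family B. A3 had the highest level of the 11 steers for 12 of the 33 miRNAs and A6 for 13. The summed level of the region was 13247 CPM in A3 and 14365 CPM in A6, whereas the other 4 steers of family A had 7633 to 9522 CPM and family B had 7215 to 10401 CPM. Without A3 the median was 0.17, without A6 it was 0.09 with 21 of 32 higher, and without both it was 0.01 with 17 of 32 higher, against 0.01 over all miRNAs tested. Leaving out both was added after their levels were seen, and leaving out the highest steers of family A lowers the median by itself. The higher levels were mainly those of 2 half-sibs, neither of which has an RFI group. Their libraries held 3003692 and 1930859 counts. With all libraries thinned to equal depth the median was 0.19 with 27 of 34 higher, against 0.04 over all miRNAs tested. With any count allowed 35 of 53 were higher (66.0%, against 51.0% of all miRNAs tested). Why these 2 steers were high was not tested. Without A3 and A6, the difference was 0.16 for bta-miR-409a and 0.12 for bta-miR-154c.

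**Figure D4:**
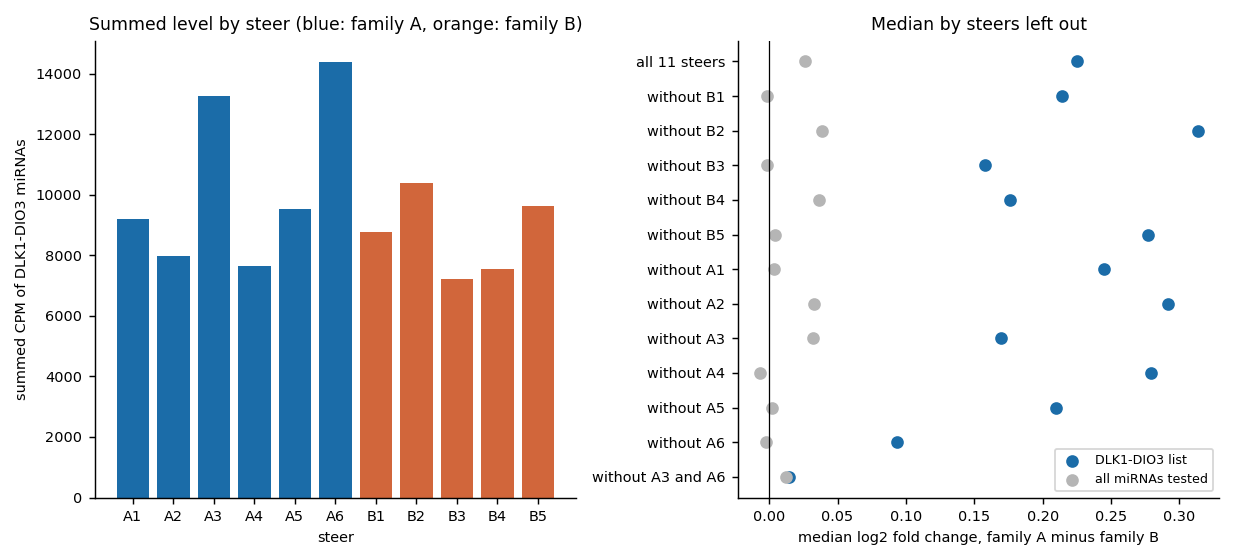
Left: summed level in CPM of the DLK1-DIO3 miRNAs in each steer (bars from 0; blue family A, orange family B), highest in A3 (13247 CPM) and A6 (14365 CPM). Right: median log2 fold change of the list (blue) and of all miRNAs tested (grey) with all 11 steers and with steers left out. Without A3 and A6, left out together after their levels were seen, the list median falls from 0.23 to 0.01.

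X-linked miRNAs were listed because sons receive no X chromosome from their sire. All 33 tested lie on the X chromosome in the RefSeq assembly. Of these 13 had a higher and 20 a lower mean in family A, the median log2 fold change was -0.06, and 0 had an edgeR p under 0.05, adjusted or not, beside 55.3% higher, a median of 0.03 and 6.88% at p under 0.05 over all 378. The smallest p was that of bta-miR-502b, at 14.8 ± 2.09 CPM (SD, n = 6) against 19.7 ± 5.47 CPM (SD, n = 5), with a log2 fold change of -0.41 (exact permutation p = 0.0563). Its edgeR p was 0.0525, and its p was under 0.05 in 11 of 25 alternatives, DESeq2 among them, with a smallest p of 0.0192. B1 and B2 were the highest at 21.8 and 28.5 CPM, and the other 3 steers of family B lay within the range of family A. 

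Conserved families with many copies in animals had median log2 fold changes between -0.23 and 0.12, beside 0.03 over all 378. Single members reached -0.78 and 0.74, and 1 had p under 0.05, beside 6.88% of all 378. The median log2 fold change was -0.07 for let-7 (9 tested), 0.03 for the miR-17 and miR-92 clusters (13), 0.04 for miR-15 and miR-16 (6), -0.03 for miR-30 (7), -0.04 for miR-29 (5), 0.12 for miR-10, miR-99 and miR-125 (8), 0.03 for miR-181 (4), -0.19 for miR-183 (3) and -0.23 for miR-34 and miR-449 (3). bta-miR-34c, whose family acts in the p53 response, alone had p under 0.05, with 0.984 ± 0.308 CPM (SD, n = 6) against 1.79 ± 0.367 CPM (SD, n = 5) and 3 counts or fewer in 4 steers (log2 fold change -0.78, edgeR adjusted p = 0.692). This call was lost in 13 of 24 alternatives, among them the likelihood-ratio test, DESeq2 and no scaling factors, with p-values of 0.0586, 0.0969 and 0.0759. bta-miR-181a had 6566 to 7857 CPM in family A and 7547 to 8244 CPM in family B, where only A2 lay within the family B range (log2 fold change -0.18, edgeR p = 0.0531, exact permutation p = 0.0173). The members with the smallest p of the other families were bta-let-7f (-0.21), bta-miR-92b (-0.29), bta-miR-195 (0.32), bta-miR-30b-3p (0.74), bta-miR-29b (-0.20), bta-miR-99a-5p (0.18) and bta-miR-182 (-0.27), with edgeR p-values from 0.0848 to 0.260. bta-miR-449a, which is kin to bta-miR-34c by its seed, had a log2 fold change of -0.23 with a wide interval of -1.55 to 1.09, and A3 (7.43 CPM) and B4 (8.001 CPM) stood far above their half-sibs. bta-miR-190a was below the level for testing, with 0 to 13 counts in the steers.

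**Figure D5:**
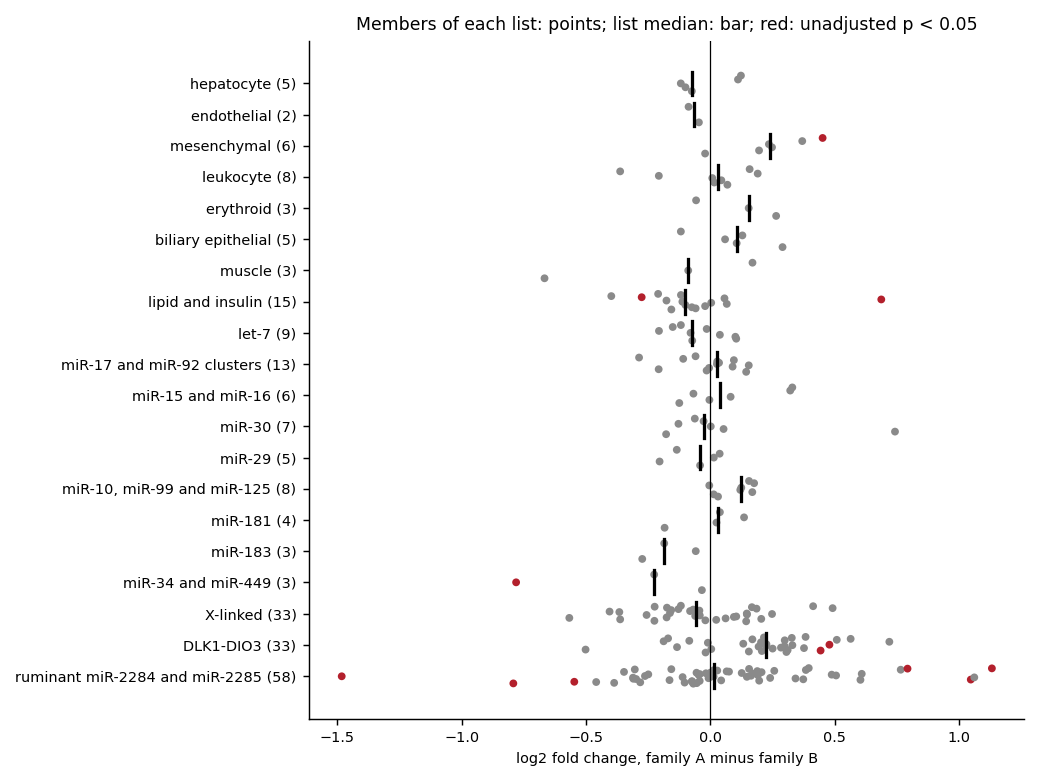
Log2 fold change of family A minus family B (horizontal axis) for each tested member of the 20 lists, with the number tested in brackets, the list median as a bar and members with unadjusted p under 0.05 in red. Medians lie between -0.23 and 0.24, and red members occur in 5 of the 20 lists.

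No miRNA of the 10 most abundant had an edgeR p under 0.05, and their log2 fold changes lay between -0.21 and 0.06. The 95% intervals given below allow larger differences. bta-miR-192, the most abundant, had 223750 ± 33202 CPM (SD, n = 6) in family A and 242910 ± 55272 CPM (SD, n = 5) in family B (log2 fold change -0.12, 95% interval -0.44 to 0.21). bta-miR-143 had a log2 fold change of -0.02 (-0.40 to 0.36), bta-miR-148a -0.10 (-0.46 to 0.26), bta-miR-30a-5p -0.18 (-0.53 to 0.18) and bta-miR-26a -0.05 (-0.29 to 0.19). The other 5 of the 10 most abundant had log2 fold changes of -0.21 (bta-let-7f), -0.18 (bta-miR-27b), -0.09 (bta-miR-126-5p), 0.03 (bta-miR-22-3p) and 0.06 (bta-miR-101). B2 had the highest level of the 11 steers for bta-miR-192 (328750 CPM), bta-miR-143 (286120 CPM), bta-miR-148a (207060 CPM), bta-miR-30a-5p (168830 CPM) and bta-let-7f (41484 CPM). Without B2 the log2 fold changes were 0.03 for bta-miR-192, 0.23 for bta-miR-143, 0.11 for bta-miR-148a, 0.03 for bta-miR-30a-5p and 0.06 for bta-miR-26a.

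The 26 miRNAs with p under 0.05 had 26 different seeds, and 8 of them shared theirs with other tested miRNAs. Of those 19 seed mates 0 had p under 0.05 in edgeR, which follows from the 26 different seeds and is no separate result. A difference in the same direction occurred in 14, where 55.3% of all 378 were higher and 44.7% lower in family A. The seed mates of bta-miR-2285bl, at -0.02 to 0.61, mostly went the other way. Near-identical relatives, whose counts can be split by the counting, are among the 19. Whether seed mates share a direction was not tested.

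The 9 other Angus steers, which took no part in the tests, gave a further view of the levels. On a scale common to all 60 libraries, their median lay between the family medians for 21 of the 26 miRNAs with p under 0.05. Those 26 were picked because the families lay apart, which by itself makes a median between them likely. The same count was not made over all miRNAs tested, so no conclusion is drawn from it. For bta-miR-2284ab the other Angus steers ranged from 6.17 to 17.4 CPM with a median of 14.9 CPM. Of the 9 steers, 7 lay within the range of family B and 1 within that of family A. Charolais steers had 7.52 to 17.9 CPM (median 13.2) and KC steers 8.48 to 20.0 CPM (median 14.4), so that the range of each breed overlapped those of both families. For bta-miR-33a the other Angus steers had a median of 6.65 CPM (3.99 to 11.01), between 8.39 in family A and 5.52 in family B. bta-miR-455-5p had a median of 55.1 CPM (37.5 to 97.6) in them, near the 51.6 CPM of family B. bta-miR-2419-5p reached 167 CPM among other Angus steers, 213 CPM in Charolais and 189 CPM in KC, so that levels as high as those of A1 and A6 occurred outside the families. bta-miR-409a had a median of 29.6 CPM in other Angus steers, below both families (45.7 and 38.6 CPM).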

How the data were processed

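Liver small RNA of 60 steers was sequenced (TruSeq Small RNA kit), and the 11 Angus steers of 2 sires were compared. After adapter trimming and a length filter, the authors ran miRDeep2 on the reads, with UMD3.1 as the genome, and deposited raw counts for each pair of mature miRNA and precursor. The submitters' processing notes name bcl2fastq 2.17.1.14, FastQC 0.11.7, cutadapt 1.16 and Bowtie 1.1.1. Counts of a miRNA over its precursors were averaged, as in the study, and rounded, which gives 1030 miRNAs. Those that reached 1 CPM in 5 or more of the 11 steers were tested with edgeR 4.0.16's quasi-likelihood test (TMM, Benjamini-Hochberg over 378), with an exact two-sided permutation test of mean log2 CPM (prior count 0.5, Python 3.11.15) beside it. DESeq2 1.42.0 was an alternative. Intervals are 95% and come from edgeR's standard errors. For 9 miRNAs edgeR raises p for counting error, so that their intervals are slightly too narrow; bta-miR-2411-5p and bta-miR-34c are among them. Library totals of 1930859 to 5703119 set the precision: 3 counts stand for 0.526 to 1.55 CPM, and such floors cover counting error only, since PCR reads are not independent molecules. Each steer is a separate animal. Steer numbers follow accession order and pair nothing.

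Named are the 15 miRNAs with the smallest p, the 5 largest called folds in each direction, the 10 most abundant, the smallest p of each list, bta-miR-122, bta-miR-190a and bta-miR-449a. The other miRNAs at p under 0.05, seed mates, near-identical miRNAs (at least 18 aligned bases, at most 1 mismatch, starts shifted by at most 2), bta-miR-33b and the bta-miR-199a arms were named after their values were seen. The pair of families and the lists were chosen with earlier results of these data known, although the rule that assigns a steer to a family uses its sire label only. Genes around hairpins are from RefSeq's ARS-UCD2.0 annotation, matched by hairpin name without regard to strand, and no coordinates are given since that is not the files' build. Mature sequences are those the study lists. The model was tested on simulated counts. Alternatives covered the test, scaling, filter, precursors, depth, RFI group, choice of steers and each steer left out.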

Additional observations from a re-analysis of the deposited data

Results flagged for a closer look

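In 12 of the 92 family groups of named miRNAs, 1 steer lay far from its half-sibs, by a gap of more than Dixon's 95% critical share of the group's range. For independent, normally distributed values about 1 in 20 groups would be flagged (4.6 of 92). The values here were CPM without a log, several groups share a steer, and some miRNAs were named for their values. The 12 can therefore not be read as more than chance gives. A4 had 49.3 CPM of bta-miR-455-3p (26.2 to 30.2 in its half-sibs), 132 CPM of bta-miR-455-5p (57.5 to 80.3) and 53.5 CPM of bta-miR-144 (22.4 to 32.9). The 2 miRNAs of bta-mir-455 come from 1 hairpin. A6 had 14.9 CPM of bta-miR-2411-3p (1.49 to 6.26) and 42732 CPM of bta-miR-22-3p (33571 to 36668). A3 had 7.43 CPM of bta-miR-449a (0.421 to 2.38), and A2 had 7857 CPM of bta-miR-181a (6566 to 6915). In family B, B2 had 207060 CPM of bta-miR-148a (102670 to 129330), 168830 CPM of bta-miR-30a-5p (91123 to 101950) and 41484 CPM of bta-let-7f (26747 to 30326). B5 had 9.72 CPM of bta-miR-3432a (6.77 to 7.59), and B4 had 11386 CPM of bta-miR-101, the 1 low value (15413 to 16444 in the others).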

How the results depend on the processing

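No setting gave a miRNA at adjusted p under 0.05: the count was 0 in all 25 alternatives, with a smallest adjusted p of 0.0766 (without B4). The count at unadjusted p under 0.05 and a fold above 1.5 was 18 and stayed within 1.5 times that value except with any count allowed (33 of 683 tested), with at least 10 counts required in every steer (7 of 231 tested) and without A1 (11). Fewer or more miRNAs were tested in the first 2, and for the third the cause was not tested. Leaving out 1 steer at a time gave 11 to 21. The split of higher against lower was 11 and 7, but 10 and 11 after thinning to equal depth and 12 and 5 without scaling factors. Without B3 it was 6 and 12, without B1 6 and 8, without B5 7 and 7, without A1 5 and 6, and without A6 5 and 7, so that the number higher fell by more than 1.5 times on leaving out any of these steers. Of the 18, 7 were also called in the 6 steers without an RFI group (18 calls), where 3 stand against 3. The difference between and within families in distance, 0.029, was -0.0111 without scaling factors and -0.19 with any count allowed, and its range without 1 steer was -0.26 to 0.39, negative without B1 (-0.24), B2 (-0.26), B3 (-0.11), B4 (-0.15) or B5 (-0.25), with exact permutation p from 0.0952 to 0.9697 over all settings. The cause of these sign changes was not tested.

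For 37 of the 46 named miRNAs the sign of the difference was kept in every alternative. Among the 15 with the smallest p no sign changed, 10 kept p under 0.05 with any 1 steer left out, and 3 (bta-miR-12001, bta-miR-2285bl and bta-miR-2411-3p) kept it in every alternative in which they were tested. For 6 of the 15 p under 0.05 was lost only in the 6 steers without an RFI group. The 15 were picked for their small p in these same steers, and every alternative used all or part of them. That choice by itself makes kept signs and small p-values likely, so they lend the differences no support. The sign changes were all in miRNAs with p above 0.05, which the same choice makes likely. For the log2 fold changes of the abundant miRNAs, leaving out 1 steer at a time gave -0.201 to 0.0329 for bta-miR-192 (positive without B2), -0.143 to 0.231 for bta-miR-143 (positive without B2, and 0.0082 without A2), -0.199 to 0.114 for bta-miR-148a, -0.308 to 0.0345 for bta-miR-30a-5p and -0.102 to 0.0605 for bta-miR-26a (each positive without B2). It gave -0.0333 to 0.0789 for bta-miR-22-3p (negative without A6, B2 or B5), -0.0581 to 0.123 for bta-miR-101 (negative without A4 or B4) and -0.953 to 0.54 for bta-miR-449a (positive without B4). Without scaling factors bta-miR-143 had 0.0924 and bta-miR-26a 0.0207, and in the steers without an RFI group bta-miR-143 had 0.0802. With A3 and A6 left out together, a setting added after seeing the data, bta-miR-148a had 0.0369 and bta-miR-122 0.0660. No paired analysis was possible because steer numbers are only names and pair no steers between the families. Depth limits the miRNAs near 1 CPM, where 3 counts or fewer occurred in several steers.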
